A study of Homo sapiens with 6 samples.

Results

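The genes described here carry iron into the cell, store it, send it out again and sense how much is present. They were chosen by name, with earlier results of these data known. The genes are TF, TFRC, TFR2, HAMP, SLC40A1, FTL, ACO1, IREB2, SLC11A2 and CP. Every probe set that the array's annotation maps to one of them is shown apart. A probe set is a group of short probes on the array that reports the RNA of 1 stretch of a gene. Of the 10 genes, 9 had probe sets under their symbol, 28 in all, among 19775 named genes and 54675 probe sets on the array. IREB2 was not analysed here.

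RNA came from Hep3B, a human hepatocellular carcinoma cell line, grown in medium with G418, the drug that selects for the transfected plasmid. The control cells were clone 2 carrying the plasmid pU6, and the silenced cells were clone D20 carrying the plasmid siSDHB, which targets SDHB, a subunit of succinate dehydrogenase. Each clone was measured on 3 arrays, A, B and C, of the Affymetrix type HG-U133 Plus 2.0. The comparison asks how transcript levels in the silenced clone differ from those in the control clone. Each group was a single clone, so silencing and clone cannot be told apart. The labels do not say whether the 3 arrays of a clone came from separate cultures, so p-values measure only the spread between these arrays, which may be technical. The SDHB signal was not analysed here.

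Iron travels in plasma bound to transferrin, which cells take up through the transferrin receptor. In the endosome the iron leaves transferrin and crosses into the cytosol through the transporter DMT1. What is not used is stored in ferritin, and ferroportin is the exporter that returns iron to plasma, where ferroxidases such as ceruloplasmin oxidise it for loading onto transferrin. The liver makes transferrin, ceruloplasmin and hepcidin, the hormone that makes cells degrade ferroportin. Inside the cell, iron regulatory proteins bind hairpins called iron-responsive elements (IREs): an IRE near the start of an mRNA, as in ferritin and ferroportin, blocks its translation, and IREs near the end, as in TFRC, protect the mRNA from decay.

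Sequences show the kinds of control that act on these transcripts, and are RefSeq sequences of build GRCh38.p14. Of the 10 genes, 8 had entries in the RefSeq promoter table, 13 start sites in all, and each entry holds 250 bases before the start and 50 after it. CP and TFR2 had no entry, so no letters were searched for in their promoters. The FTL stretch is shown because it holds the IRE loop, chr19:48965331-48965358 on the plus strand, within the first 50 bases of the transcript. Its capitals mark the loop letters CAGTG, which were searched for on the transcript's strand. The TFRC promoter, chr3:196082091-196082340 on the minus strand, is shown because it holds ACGTG, the core letters of a hypoxia response element. Its capitals mark these letters, which were searched for on both strands. The HAMP promoter, chr19:35282278-35282527 on the plus strand, is shown because it holds the letters known for its response to bone morphogenetic proteins (BMP) and to STAT3, both of which belong to pathways measured below. Its capitals mark GGCGCC and the match to TTCNNNGAA, which do not overlap.
FTL: ctgtctcttgcttcaaCAGTGtttggac
TFRC: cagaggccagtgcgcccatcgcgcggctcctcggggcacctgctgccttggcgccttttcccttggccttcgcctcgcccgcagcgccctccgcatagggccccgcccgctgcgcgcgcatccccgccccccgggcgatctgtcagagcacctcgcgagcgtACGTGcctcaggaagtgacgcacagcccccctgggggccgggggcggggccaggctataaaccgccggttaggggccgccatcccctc
HAMP: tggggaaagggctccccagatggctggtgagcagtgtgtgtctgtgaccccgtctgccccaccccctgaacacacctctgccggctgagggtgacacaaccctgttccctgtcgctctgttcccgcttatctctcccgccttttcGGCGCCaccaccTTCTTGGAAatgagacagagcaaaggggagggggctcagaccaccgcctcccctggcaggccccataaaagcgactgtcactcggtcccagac

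The match in TFRC began 88 bases before the start site, and ACGTG occurred in the 250 bases before 18.5% of all 35116 start sites of the table. The FTL promoter held ACGTG too, 11 bases before the start. No other start of the 8 genes with entries had it, those of TF included, while CP and TFR2 were not searched. Whether hypoxia response elements had a part in any change was not tested. In HAMP, GGCGCC began 105 bases and the STAT match 93 bases before the start site, and 16.4% and 6.57% of all start sites had these letters in the same length. GGCGCC was also found before both TF starts and before starts of TFRC, ACO1 and IREB2, and the STAT letters before no other start of the 8 genes. CAGTG began at base 39 of the FTL transcript. The first 50 bases held it in 6.48% of all entries, that of HAMP among them. These matches describe the letters and do not show that a factor binds there.

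On each array a probe set had a MAS5 signal, a linear measure of brightness. All 6 arrays had a trimmed mean of 500.1 and median signals between 77.7 and 92.4. Of the 28 probe sets, 24 lay above the filter on dim signals and were tested on log2(signal + 16) with limma, two-sided. The adjustment (Benjamini-Hochberg) covered all 32768 probe sets above the filter, and an adjusted p under 0.05 was called. In D20, 9 of the 24 were higher and 7 lower, and 8 did not pass the test. Over all probe sets tested, 19.5% were higher and 17.0% lower, 36.5% in all, against 16 of 24 here. The 16 belonged to 7 genes, so a gene with several called probe sets counted more than once. As the genes were also chosen with earlier results of these data known, the contrast of these probe set shares is only descriptive. The median log2 fold change, D20 over control, was 0.05 for the 24 and 0.03 for all tested. The D20 arrays lay all above the control arrays for 11 of the 24 and all below for 10, against 25.1% and 22.1% of all probe sets tested.

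Cell markers give the setting for these values. Of 15 tested hepatocyte markers, 11 fell, 2 rose and 2 did not pass the test, among them albumin, ALB, with a log2 fold change of 0.00. The summed signal of these 15 ran from 355100 to 363400 on the control arrays and from 184300 to 211100 on the D20 arrays. Their median change on the log2 scale was -1.20, against 0.04 for all 13781 genes tested. Of the markers of other cell types, 1 of 7 fibroblast genes tested rose and 2 fell, 1 of 2 endothelial genes rose, 3 of 5 biliary genes rose and 1 fell, and neither of 2 blood cell genes passed the test. PTPRC, which marks white blood cells, was below the filter, with signals of 23 to 50.2 over the 6 arrays. Others below the filter were COL3A1 and POSTN of fibroblasts, CD3E of T cells, CDH5, VWF, TEK and KDR of endothelium and CFTR of bile ducts. The median log2 fold changes of these lists were -0.54 for fibroblast, 0.46 for endothelial, 0.39 for biliary and -0.76 for blood cell genes. The summed fibroblast signal was 1152 to 1429 on the control arrays and 4252 to 4954 on the D20 arrays, with COL1A1 at 1.23 ± 0.503 (SD, n = 3) and 3780.0 ± 407. The rise of this sum rests on that 1 COL1A1 probe set, and COL1A1 was called higher with 2 of its 4 tested probe sets. The summed signal was 19570.0 to 20410.0 and 20920.0 to 23730.0 for biliary, 71.8 to 272.4 and 193.6 to 300.4 for endothelial, and 203.4 to 286.5 and 108 to 171.9 for blood cell genes. Both groups were clones of the Hep3B line, so these lists describe its transcripts and do not count cells of other types. In such bulk RNA, fewer cells expressing a gene and less RNA per cell cannot be told apart. The ratio of 3′ to 5′ signal of the actin control ran from 1.42 to 1.90 in the control clone and from 1.40 to 1.68 in D20 (two-sided exact permutation test, p = 0.3, where 0.1 is the smallest possible). For the GAPDH control it ran from 1.08 to 1.15 and from 1.11 to 1.25 (p = 0.4, same exact test).

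**Figure D1:**
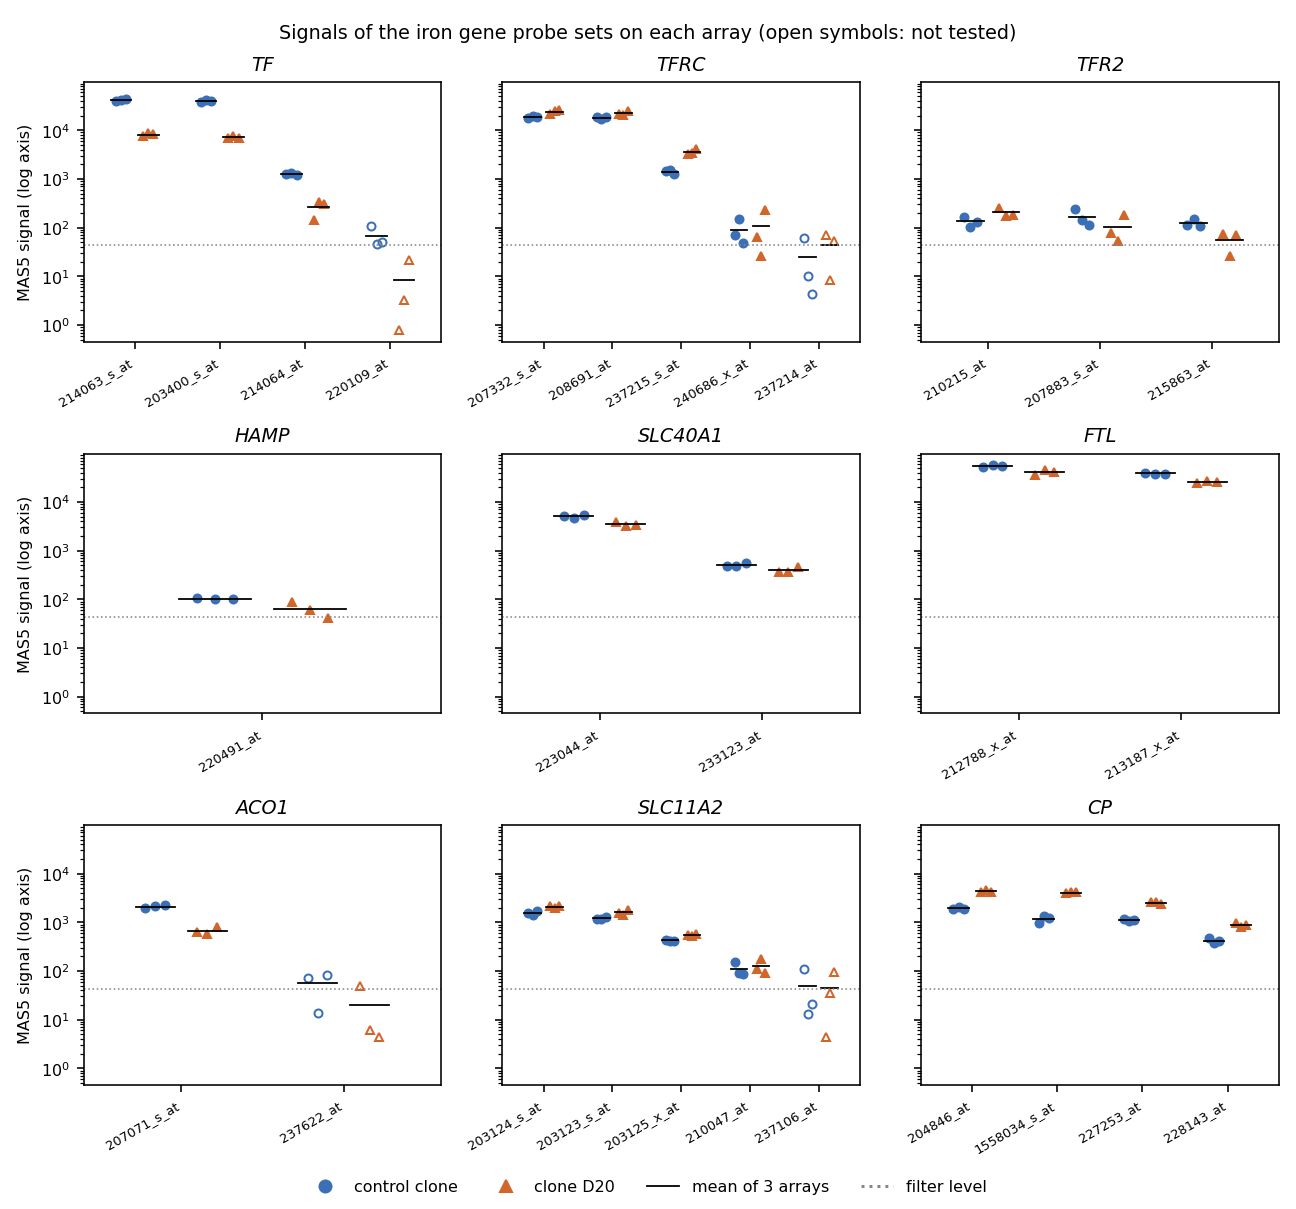
MAS5 signal (log axis) of each probe set of the 9 iron genes on the 3 control arrays (circles) and the 3 D20 arrays (triangles), with the mean of each clone as a line, open symbols for probe sets that were not tested, and the filter level dotted. The TF and ACO1 probe sets at high signal sit lower in D20 and the 4 CP probe sets sit higher, while TFR2 and HAMP lie near the filter level in both clones.

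TF encodes transferrin, the iron carrier of plasma and a major secreted product of hepatocytes. Its transcript fell about 5-fold in D20, the largest change among the iron genes. With probe set 203400_s_at the signals were 38658.8, 40971.4 and 40032.1 on control arrays A, B and C, and 7068.4, 7521.2 and 7079.7 on D20 arrays A, B and C. Each D20 array was far below each control array. The log2 fold change was -2.46 ± 0.07 (SE), or 5.51-fold lower (limma, Benjamini-Hochberg adjusted p = 1.2e-10). For probe set 214063_s_at the mean was 42194 ± 1839 (SD, n = 3) against 8176 ± 607, which is -2.37 on the log2 scale, and for 214064_at 1249 ± 50.1 against 265 ± 105, or -2.25. All 3 tested probe sets therefore gave falls of similar size. The fourth, 220109_at, was dim and not tested, with 108.5, 45.5 and 49.8 in the control clone and 0.8, 3.2 and 21.8 in D20. Of the 15 tested hepatocyte markers 11 fell, the most AFP (-5.62) and F2 (-4.94). Transthyretin, TTR (-2.99), APOH (-2.34), AMBP (-0.74) and SERPINA1 (-0.54) were also among the 11. ALB (0.00) and APOA2 (-0.20) did not pass the test, and FGA (1.09) and FGB (1.71) rose. Whether the TF result has a part in common with these was not tested.

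CP encodes ceruloplasmin, the copper-carrying ferroxidase that the liver also secretes, and it moved the opposite way to TF. All 4 of its probe sets rose, between 2.07-fold and 3.47-fold. With 204846_at the control signals were 1873.1, 2062.8 and 1865.4 and the D20 signals 4234.1, 4533.7 and 4169.5. The clones did not overlap for this or any other CP probe set. The log2 fold change was 1.15 ± 0.09 (SE; limma, Benjamini-Hochberg adjusted p = 6.1e-07). Probe set 1558034_s_at gave the largest rise. Its means were 1175 ± 181 (SD, n = 3) and 4088 ± 149, which is 1.80 higher on the log2 scale with a 95% confidence interval of 1.54 to 2.05. The intervals of the other 3, 204846_at (0.96 to 1.35), 227253_at (0.91 to 1.36) and 228143_at (0.73 to 1.38), lay below it. So the rise was seen with every CP probe set, and its size differed between them. CP was not alone among secreted liver proteins in rising, since the fibrinogen chains FGA (1.09) and FGB (1.71) of the marker list rose too, while the third chain, FGG, fell (-2.17).

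TFRC encodes transferrin receptor 1, the main route of iron into dividing cells. Of its probe sets, 2 showed a small rise and 1 a larger one. With 207332_s_at the control signals were 18284.3, 19677.3 and 18641.5 and the D20 signals 21580.1, 24985.6 and 26181.1. All D20 arrays were above all control arrays, and the log2 fold change was 0.36 ± 0.08 (SE), or 1.28-fold (limma, Benjamini-Hochberg adjusted p = 0.0049). Probe set 208691_at went from 18675.5, 16993.0 and 19085.1 to 21273.0, 20227.4 and 25278.2, again with no overlap, a log2 fold change of 0.28 ± 0.09 (adjusted p = 0.03). The third probe set called, 237215_s_at, rose more, from 1438.0, 1545.7 and 1282.1 to 3178.1, 3444.4 and 4073.7, a log2 fold change of 1.31 with an interval of 1.06 to 1.56 that lies above those of the other pair (0.17 to 0.54 and 0.08 to 0.48). Where in the TFRC transcript each probe set lies was not analysed here. Probe set 240686_x_at, with 49.2 to 150.0 in the control clone and 25.9 to 234.7 in D20, did not pass the test. Its log2 fold change was -0.06 (limma, Benjamini-Hochberg adjusted p = 0.96). Probe set 237214_at was below the filter.

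The rise of TFRC 208691_at was close to the threshold. Its call was lost without control array A (0.30, adjusted p = 0.063), B (0.23, adjusted p = 0.12) or C (0.31, adjusted p = 0.057), without D20 array C (0.19, adjusted p = 0.14), with each array centred on its median (0.16, adjusted p = 0.22), with no filter (adjusted p = 0.069) and without the variance trend (adjusted p = 0.18), by limma with Benjamini-Hochberg. That of 207332_s_at was lost without the variance trend (adjusted p = 0.082) and in no other alternative. The adjusted p of 237215_s_at was 1.6e-06, and it passed the test under all 15 alternatives. The reference gene ACTB also rose by 0.28 (adjusted p = 0.04, limma with Benjamini-Hochberg), the same size as 208691_at. The other reference gene, GAPDH, was at 0.04 (adjusted p = 0.8, same test).

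TFR2 encodes transferrin receptor 2, a hepatocyte protein that senses loaded transferrin and takes part in the control of hepcidin. None of its 3 probe sets passed the test, and they pointed different ways. With 215863_at the control signals were 115.7, 148.5 and 108.3 and the D20 signals 72.3, 25.6 and 69.5, which is -1.03 on the log2 scale (adjusted p = 0.069, limma with Benjamini-Hochberg). With 210215_at they were 167.5, 105.5 and 130.1 against 258.4, 176.9 and 180.1, a log2 fold change of 0.56 (adjusted p = 0.15). The D20 arrays lay below the control arrays for the first and above for the second. With 207883_s_at the clones overlapped (-0.71, adjusted p = 0.21). Each of the 3 passed the test under some alternative: 215863_at with quantile normalization (adjusted p = 0.045) or median centring (adjusted p = 0.044), 210215_at with spike-in scaling (0.81, adjusted p = 0.032) and 207883_s_at without D20 array C (-1.14, adjusted p = 0.048), limma with Benjamini-Hochberg in each. All 3 were dim, and no direction can be given for TFR2.

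SLC11A2 encodes DMT1, which moves iron out of the endosome into the cytosol. With 2 of its probe sets it was 1.33-fold and 1.32-fold higher in D20. With 203124_s_at the signals went from 1582.4, 1410.3 and 1712.8 to 2125.5, 1952.8 and 2192.0, a log2 fold change of 0.41 ± 0.11 (SE; limma, Benjamini-Hochberg adjusted p = 0.0084). With 203123_s_at they went from 1171.1, 1148.9 and 1281.3 to 1550.2, 1437.9 and 1792.1, a change of 0.40 ± 0.12 (adjusted p = 0.016). The D20 arrays lay above the control arrays for both. Probe set 203125_x_at, at 426 ± 12 (SD, n = 3) and 556 ± 28.7, also separated the clones, with a change of 0.37 that did not pass the test (adjusted p = 0.068, and 0.62 with adjusted p = 0.0068 on the spike-in scale). Of the dim probe sets, 210047_at overlapped (0.15, adjusted p = 0.79) and 237106_at was not tested. The calls of 203124_s_at and 203123_s_at were lost with median centring (0.29, adjusted p = 0.075, and 0.28, adjusted p = 0.11) and without the variance trend (adjusted p = 0.057 and 0.07), and that of 203123_s_at also without control array A (0.38, adjusted p = 0.051) or D20 array C (0.31, adjusted p = 0.07), limma with Benjamini-Hochberg throughout.

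FTL encodes the light chain of ferritin, the iron store, and is translated under control of the IRE whose loop is printed above. It fell in D20 with both of its probe sets. With 213187_x_at the signals went from 39760.1, 37918.9 and 38165.2 to 24069.7, 26911.5 and 25773.3, a log2 fold change of -0.59 ± 0.07 (SE), or 1.51-fold lower (limma, Benjamini-Hochberg adjusted p = 3.3e-05). With 212788_x_at they went from 51549.0, 56206.0 and 54331.2 to 35401.1, 44798.5 and 41957.1, a change of -0.41 ± 0.09 (adjusted p = 0.0028). The clones did not overlap for either. The names of both end in _x_at, which marks probe sets with probes that can match other transcripts, such as ferritin pseudogenes, so their reads of FTL are uncertain. With the arrays scaled on spike-in controls the changes were -0.35 (adjusted p = 0.013) and -0.16 (adjusted p = 0.31), and the second was also lost without the variance trend (adjusted p = 0.066), limma with Benjamini-Hochberg. The other ferritin chain, FTH1, was not analysed here.

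SLC40A1 encodes ferroportin, the iron exporter of the cell. It fell with 1 of its probe sets, 223044_at, whose signals went from 5144.8, 4694.5 and 5445.6 to 3796.8, 3228.0 and 3359.4. Each D20 array was below each control array, and the log2 fold change was -0.56 ± 0.09 (SE), or 1.47-fold lower (limma, Benjamini-Hochberg adjusted p = 4.7e-04). It was -0.31 with spike-in scaling (adjusted p = 0.037). Probe set 233123_at went from 494.3, 494.5 and 559.9 to 358.6, 363.7 and 465.4, again without overlap. Its change of -0.38 did not pass the test (adjusted p = 0.099), but did without D20 array C (-0.49, adjusted p = 0.048), with quantile normalization (-0.48, adjusted p = 0.042) and with median centring (-0.50, adjusted p = 0.041), limma with Benjamini-Hochberg.

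HAMP encodes hepcidin, the liver hormone that lowers iron export. Its single probe set was dim in both clones, with 106.0, 101.5 and 102.8 in the control clone and 88.8, 61.6 and 41.6 in D20. The control arrays lay within a narrow range, the D20 arrays spread, and all D20 values were below all control values. The log2 fold change of -0.62 had a 95% confidence interval of -1.45 to 0.21 and did not pass the test (limma, Benjamini-Hochberg adjusted p = 0.24), nor did it under any alternative that tested it.

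ACO1 encodes iron regulatory protein 1, which is a cytosolic aconitase while it holds an iron-sulfur cluster and binds IREs when it has lost it. Its transcript fell 3.15-fold. With 207071_s_at the signals went from 1958.5, 2128.3 and 2222.2 to 622.6, 572.9 and 791.4. The clones stood well apart, with a log2 fold change of -1.65 ± 0.13 (SE; limma, Benjamini-Hochberg adjusted p = 7.8e-07). The range over the alternatives was -1.79 to -1.41. Its other probe set, 237622_at, was below the filter, with 70.8, 13.4 and 83.7 against 48.3, 6.1 and 4.5.

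**Figure D2:**
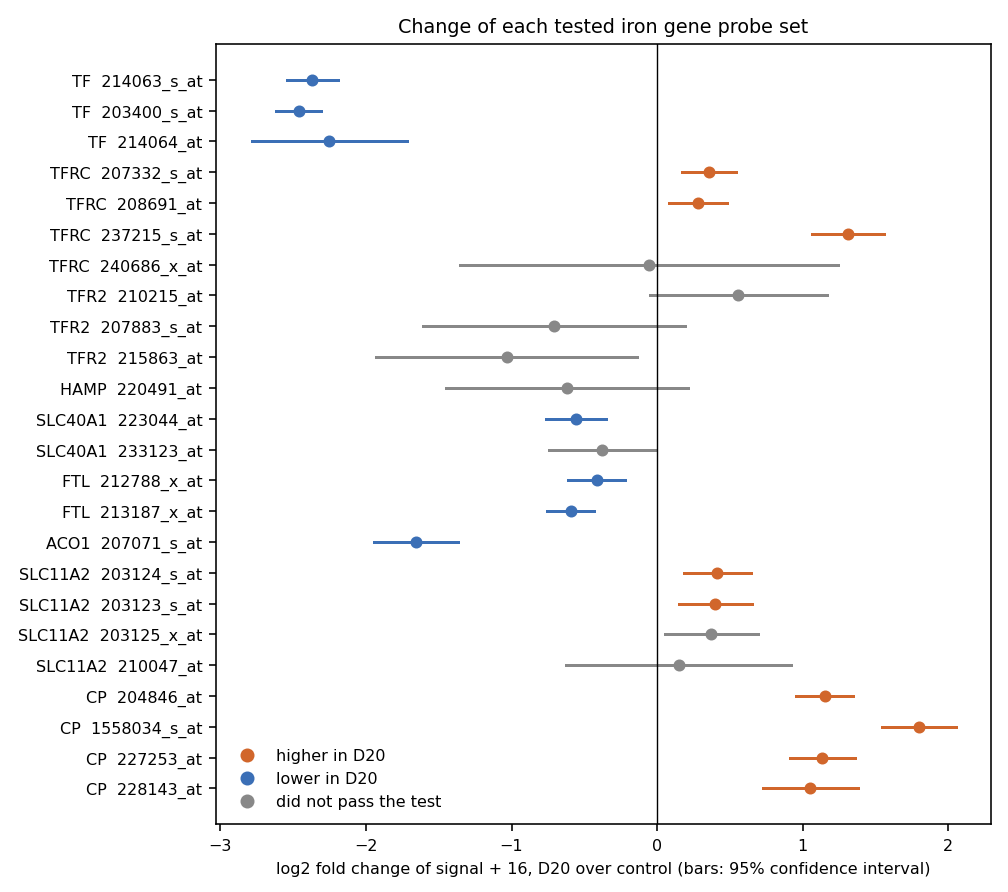
Log2 fold change of signal + 16, D20 over control, for the 24 tested probe sets of the iron genes, with 95% confidence intervals as bars, coloured by the call (higher, lower, did not pass the test). TF (-2.46 to -2.25) and ACO1 (-1.65) lie farthest to the left, CP (1.05 to 1.80) and 1 TFRC probe set (1.31) farthest to the right, and the dim TFR2 and HAMP probe sets have wide intervals.

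The size of the smaller changes depended on how the arrays were scaled. The array's control probe sets for spike-in RNAs gave another scale, on which the median change over all probe sets was 0.28 (log2) in place of 0.03, and median centring put it at -0.09. Of all called probe sets 53.5% were higher on the deposited scale, 75.7% with spike-in scaling, 48.9% with quantile normalization and 42% with median centring. TF, CP, ACO1 and TFRC 237215_s_at kept direction and call on all 4 scales. On the spike-in scale TFRC 207332_s_at was at 0.61 and SLC11A2 203124_s_at at 0.66, while the FTL and SLC40A1 falls shrank as given above. Set against the median of all probe sets, FTL and SLC40A1 lay below it and TFRC 207332_s_at and 208691_at and SLC11A2 203124_s_at and 203123_s_at above it on each scale. Median centring and spike-in scaling move all probe sets of an array by the same amount, so there these positions were fixed in advance. Only quantile normalization could have changed them.

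**Figure D3:**
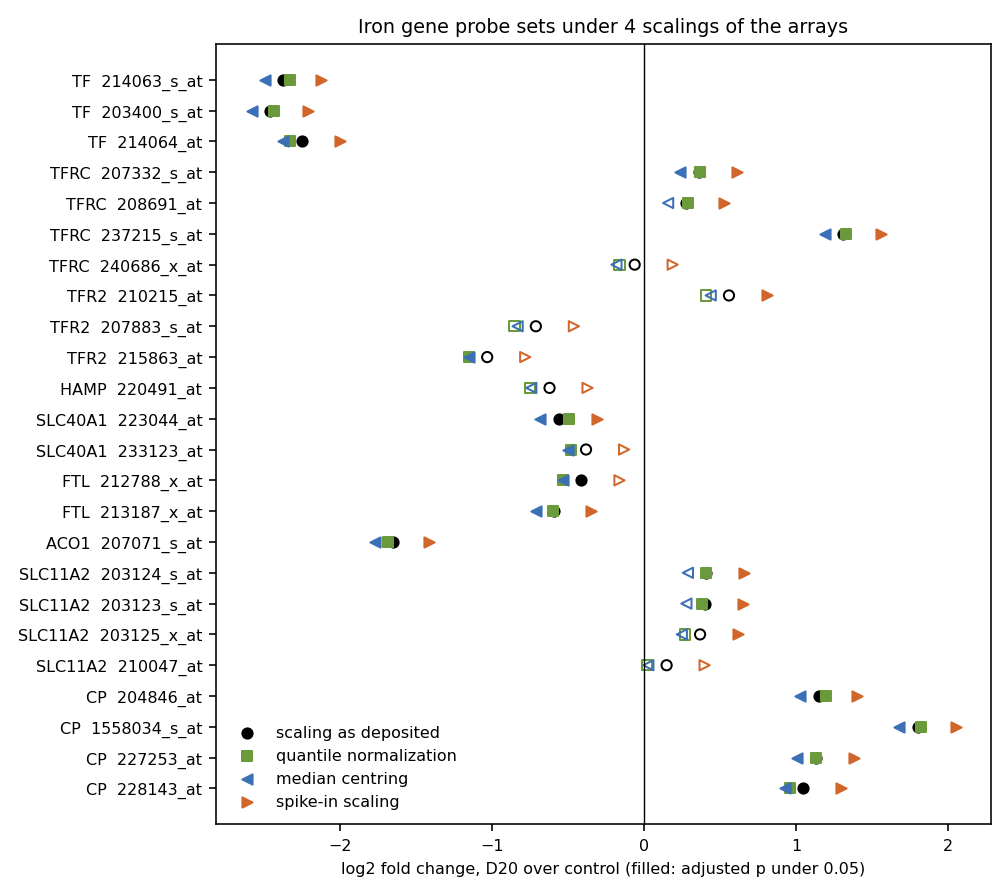
Log2 fold change, D20 over control, of the 24 tested probe sets of the iron genes under 4 scalings of the arrays, filled where the adjusted p was under 0.05. Median centring lies to the left of the deposited scale and spike-in scaling to the right for each probe set, and the calls of FTL 212788_x_at, TFRC 208691_at, SLC11A2 203124_s_at, 203123_s_at and 203125_x_at, SLC40A1 233123_at and TFR2 215863_at and 210215_at depend on the scaling.

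The other genes of the pathway were read from 8 lists with 85 genes. The array names 77 of them, and 66 were tested, each by its brightest probe set. Of the 66, 21 rose, 17 fell and 28 did not pass the test, where 23.6% of all genes tested rose and 20.7% fell, 44.3% in all. The median log2 fold change was 0.01, against 0.04 for all genes.

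The list of genes that act on hepcidin was the longest. Of 23 tested, 11 rose and 5 fell, with a median log2 fold change of 0.42, where 44.3% of all genes tested were called. Hepcidin is switched on by BMP signalling through SMAD proteins, which needs the co-receptor HJV, and by interleukin-6 through STAT3. ERFE, a hormone that binds BMPs and lowers hepcidin, rose from dim control signals of 92.9, 14.8 and 45.8, around the filter level of 43.2, to 544.8, 507.3 and 414.6. Its log2 fold change was 3.08, and over the alternatives it ran from 2.31, with a pseudocount of 64, to 3.57, with a pseudocount of 1. SMAD7 (1.93) and SMAD6 (1.60), which inhibit BMP signalling and are themselves induced by it, rose, as did ID1 (0.81) and ATOH8 (1.16), other BMP targets, the latter in 1 of its 3 tested probe sets. Of the BMP receptors on the list ACVR1 (1.42) and BMPR2 (0.58) rose and ACVR2A fell (-0.91). SMAD9, a signal-carrying SMAD, fell (-1.71). FGL1 of the same list fell from 14924 ± 1249 (SD, n = 3) to 8601 ± 416 (-0.79), and BMP2 (0.82) and FURIN (0.92) rose. HJV fell from 321 ± 59.2 to 172 ± 48.3 (-0.87, adjusted p = 0.018, limma with Benjamini-Hochberg). That call was lost on the spike-in scale (-0.62, adjusted p = 0.08) and without control array C (-0.73, adjusted p = 0.095) or D20 array A (-0.63, adjusted p = 0.065). Without control array C the list had 3 genes lower.

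On the interleukin-6 side IL6R fell (-1.05) and IL6ST (0.42) and STAT3 (0.62) rose. BMP6, the ligand that reports liver iron, was dim, with 37.1 ± 26.6 and 105 ± 23.5, and did not pass the test (1.33, adjusted p = 0.061). It did without control array B (1.66, adjusted p = 0.042), with a pseudocount of 64 (0.77, adjusted p = 0.048) and with spike-in scaling (1.58, adjusted p = 0.029), limma with Benjamini-Hochberg. HFE, the haemochromatosis protein, was at 0.13 (adjusted p = 0.65). Of its 15 tested probe sets 11 were not called, and their mean gave 0.67 (adjusted p = 0.027). TMPRSS6, the protease that cuts HJV, was at -0.12 (adjusted p = 0.72), and at 0.13 with spike-in scaling.

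Among 6 tested genes of iron uptake and reduction 2 rose and 2 fell (median -0.15). MELTF, melanotransferrin, an iron-binding relative of transferrin on the cell surface, rose by 2.94 on the log2 scale, and by 2.26 when its probe sets were averaged. Its mean signals were 558 ± 41.6 (SD, n = 3) and 4405 ± 295. STEAP1 fell from 2654 ± 72.6 to 329 ± 68.7 (-2.97), and so did STEAP2, a metalloreductase of the same family (-1.73). The STEAP2 signals were 275.3, 272.9 and 248.1 in the control clone and 19, 121.7 and 111.1 in D20. Without D20 array A, the lowest, the change was -1.09, and without the variance trend the change stayed at -1.73 but did not pass the test (adjusted p = 0.057, limma with Benjamini-Hochberg). STEAP3, the reductase of the transferrin endosome in red cell precursors, was at -0.18 (adjusted p = 0.46). SLC39A14, a transporter for iron not bound to transferrin, was at -0.12 (adjusted p = 0.25) and changed sign with spike-in scaling (0.13), with quantile normalization at 0.00 and with its probe sets averaged (0.06). With median centring it passed the test as lower (-0.24, adjusted p = 0.049, limma with Benjamini-Hochberg). SLC39A8, its relative, rose by 0.41 (adjusted p = 0.034, limma with Benjamini-Hochberg). That call was lost with quantile normalization (adjusted p = 0.075), with median centring (adjusted p = 0.17) and without the variance trend (adjusted p = 0.093). It was also lost with its probe sets averaged (0.24, adjusted p = 0.5) and without control array A (adjusted p = 0.073), B (adjusted p = 0.093) or C (adjusted p = 0.066) or D20 array A (adjusted p = 0.16).

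In storage and handling 2 of 6 genes fell and none rose (median -0.36), while 1 rose without D20 array A. NCOA4, which carries ferritin to the lysosome for breakdown, went from 12490.0 ± 932 (SD, n = 3) to 9194 ± 361 (-0.44), and the iron chaperone PCBP2 was at -0.49. Both calls were lost with spike-in scaling (-0.19, adjusted p = 0.14, and -0.24, adjusted p = 0.085, limma with Benjamini-Hochberg), where 1 gene of the list rose. Of the 6 tested PCBP2 probe sets 1 was called higher, and their mean gave -0.18. In export 2 of 3 genes fell (median -1.03): FLVCR1, described as a heme exporter and later as a choline transporter, (-1.97), and ATP7B, the copper transporter that loads ceruloplasmin (-1.03). ATP7B went from 449 ± 38.9 to 212 ± 27.9 while CP rose.

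Of 15 tested genes of heme synthesis and breakdown 5 rose and 3 fell (median 0.28). ALAS1, the first and rate-limiting enzyme of heme synthesis in liver, rose (0.55), and so did FECH, which inserts the iron (0.62), while of the enzymes in between UROS (-1.19), UROD (-0.93) and CPOX (-0.39, adjusted p = 0.045) fell, and ALAD (-0.12, adjusted p = 0.51) and PPOX (-0.24, adjusted p = 0.41) did not pass the test (limma with Benjamini-Hochberg). The list had 2 genes lower without control array A or C, without D20 array A, with a pseudocount of 1, with no filter, on the spike-in scale and without the variance trend. Of 3 tested probe sets each, FECH was called higher with 1, UROS lower with 1 and UROD lower with 2. With the mean of its probe sets UROS was at -0.57. BLVRA, which makes bilirubin, rose (1.28), as did the heme transporter SLC48A1 (1.27). HMOX1, which releases iron from heme, was at 0.28 (adjusted p = 0.25, limma with Benjamini-Hochberg). Of 4 mitochondrial iron genes tested ABCB10 fell (-0.83) and none rose (median -0.14).

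Of 5 genes of the ubiquitin ligase machinery that degrades iron regulatory protein 2, FBXL5 rose (0.38) and SKP1 (-0.38) and RBX1 (-0.36) fell, with a list median of 0.00. FBXL5 is the subunit that binds iron and the target. Its call was lost without control array B (0.30, adjusted p = 0.11) or C (0.37, adjusted p = 0.094), without D20 array A (0.29, adjusted p = 0.13) or C (0.35, adjusted p = 0.089), with median centring (0.26, adjusted p = 0.15) and without the variance trend (adjusted p = 0.14), limma with Benjamini-Hochberg. The mean of its probe sets gave 0.85. The calls of SKP1 and RBX1 were lost on the spike-in scale (-0.14 and -0.11) and without the variance trend, and that of SKP1 also when its probe sets were averaged (-0.02). Of 4 tested genes outside the 10 whose transcripts have been described with an IRE, EPAS1 (0.61), which encodes HIF-2 alpha, and PFN2 (0.64) rose (median 0.29).

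**Figure D4:**
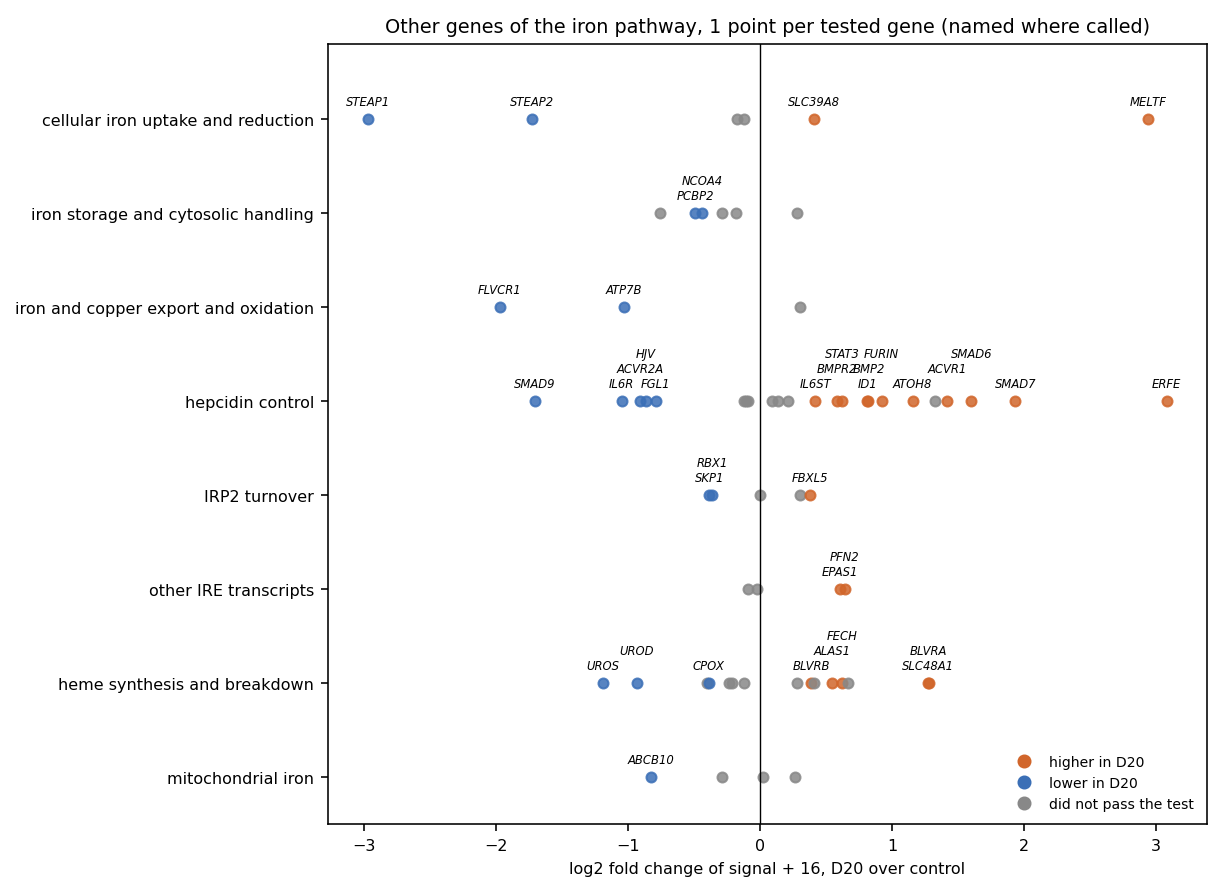
Log2 fold change of signal + 16, D20 over control, of the 66 tested genes of 8 iron pathway lists, 1 point per gene at its brightest probe set, coloured by the call and named where called. The hepcidin control list spans from SMAD9 (-1.71) to ERFE (3.08) with 11 of 23 genes higher and 5 lower. None of the 3 export and 6 storage genes tested was called higher. Of all genes tested 23.6% were higher and 20.7% lower.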

How the data were processed

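The deposited table holds linear intensity values, the MAS5 signals of each array, made by the authors with MAS5 per the submitters' processing notes. No version or scaling target is given in the sources used here, and no detection calls were used. Groups were taken from the sample titles. Names came from the platform table of GEO, with symbols brought up to date through Entrez identifiers in RefSeq: 41091 probe sets had 1 symbol, and the 1801 with several and 11721 not listed were kept in the fit but not named. Signals were transformed to log2(signal + 16), which understates the change of dim genes. The 62 control probe sets and the 40% with the lowest mean (below a signal of 43.2) were left out. The 2 clones were compared over all 32768 remaining probe sets with limma 3.58.1 in R 4.3.3 (lmFit, eBayes with a variance trend, no covariate), Benjamini-Hochberg adjusted, and the fit was tested on simulated data. The number of arrays limits the precision.

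Genes of the pathway lists were represented by their brightest tested probe set, those not ending in _x_at first. Named are all probe sets of the 10 genes, up to 4 called genes of each list with the largest changes, and HFE, HJV, BMP6, TMPRSS6, FTH1, FBXL5, NCOA4, HMOX1, SLC39A14, ACTB and GAPDH. Other genes named were chosen after their values were seen. Members and lists were chosen with earlier results of these data known. Alternatives were pseudocounts of 1 and 64, no filter or a filter of 60%, quantile normalization, median centring, spike-in scaling, no variance trend, the array letter as a block, each array left out, and, for genes, averaging the probe sets.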

Additional observations from a re-analysis of the deposited data

How the results depend on the processing

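The counts of iron gene probe sets, 9 higher and 7 lower, stayed within 6 to 11 and 6 to 9 under all alternatives, and within 7 to 9 for both when 1 array was left out. Of the pathway genes, 17 lower became 11 with spike-in scaling, with 27 higher in place of 21. Leaving out 1 array gave 14 to 18 lower and 19 to 21 higher. Over the 24 tested probe sets, 324 of 355 values kept direction and side of the threshold, 16 lost and 9 gained a call, and 6 changed sign, none of them called. These were TFRC 240686_x_at (0.02 with a pseudocount of 64, 0.19 with spike-in scaling, -0.76 to 0.53 without 1 array) and SLC11A2 210047_at (-0.10 to 0.37 without 1 array). Of 478 values of named pathway and reference genes, 430 kept both, 34 lost and 5 gained a call, and 9 changed sign. These were SLC39A14 (0.00 with quantile normalization, 0.13 with spike-in scaling, 0.06 with the mean of its probe sets), TMPRSS6 (0.13 with spike-in scaling, 0.07 with that mean, -0.38 to 0.02 without 1 array) and GAPDH, at 0.04 in the reported setting (-0.08 with median centring, -0.02 with that mean, -0.05 to 0.15 without 1 array). ACTB was at 0.28 and lost its call with 8 alternatives, median centring among them (0.16). The cause was not tested.

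No pairing of the samples by array letter was seen. Deviations of same-lettered arrays correlated at -0.021 (A), 0.052 (B) and 0.007 (C), and 2 of 6 arrays correlated best with their own letter. With 3 arrays per clone these values cannot exclude a pairing. With the letter as a replicate block, 9 iron gene probe sets were higher and 7 lower, 21 and 18 pathway genes higher and lower, and 12557 in place of 11952 probe sets called.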

Other observations

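The genes next to the iron genes on the chromosome, 10 tested protein-coding genes on either side in the order of the RefSeq gene table of GRCh38.p14, were read on the same scale. Over all genes tested 23.6% rose and 20.7% fell. Around TF, on chromosome 3, 9 of 20 neighbours rose and 2 fell, with a median log2 fold change of 0.30 where TF itself fell by 2.46. Around FTL, on chromosome 19, 8 rose and 1 fell, with a median of 0.63 where FTL fell. Around ACO1, on chromosome 9, 10 fell and 4 rose, with a median of -0.40, the same direction as ACO1. TFRC and CP, both on chromosome 3, rose among neighbours with medians of 0.30 and 0.14, with 7 and 8 of 20 higher and 1 and 3 lower. Of the neighbours of TFR2 1 rose and 7 fell (median -0.30), of those of SLC40A1 3 rose and 5 fell (-0.03), of those of HAMP 3 rose and 2 fell (-0.03) and of those of SLC11A2 2 rose and 3 fell (-0.08).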
